A study of Mus musculus with 4 samples.

Results

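The homeobox genes Prrx1, Prrx2, Alx1, Alx4, Shox2, Lhx2 and Lhx9 encode transcription factors of the limb bud mesenchyme, and the regions of accessible chromatin that lie nearest to them were compared between 2 stages of mouse forelimb bud development. A region was assigned to one of the 7 genes when the closest transcription start of any protein-coding gene belonged to it, or when a start of the gene was no further than 2.5 kb from the centre of the region. This gave 39 of the 42613 regions of the E9.5 list and 63 of the 46765 regions of the E10.5 list. The annotation (GENCODE vM1, mm9) held 22380 protein-coding genes.

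Chromatin accessibility was profiled by ATAC-seq, in which a transposase inserts sequencing adapters into open chromatin, in wild-type (WT) embryos of the NMRI strain, and the labels name no transgene or targeted allele. Each stage had 2 biological replicates, each of them the pair of forelimbs of 1 embryo, which the authors merged into 1 list of regions per stage. Samples titled e9.5, for which the protocol gives E9.75, included the trunk next to the limbs, which the labels do not mention at E10.5, so that stage and trunk tissue cannot be told apart. The tissue label at E10.5 adds hindlimb buds to the forelimb buds named elsewhere. As each stage is 1 list, there are no replicate values or read totals behind what follows, the sequencing depth cannot be stated, differences between the stages come without a replicate error, and no test was made. In such bulk samples, fewer cells with an open region and less accessibility per cell cannot be told apart.

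Prrx1 and Prrx2 are paired-related homeodomain proteins expressed throughout the early limb mesenchyme, where they act in part redundantly in skeletal growth. Alx1 and Alx4 are aristaless-like proteins: Alx4 takes part in patterning the anterior limb bud, and Alx1 is best known for its role in craniofacial development and cartilage. Shox2 is required for growth of the proximal limb skeleton. Lhx2 and Lhx9 are LIM-homeodomain proteins of the distal mesenchyme that promote limb bud outgrowth. Many developmental regulators of this kind are controlled by enhancers far from their promoters, which ATAC-seq detects as accessible regions without showing whether they act on the nearest gene.

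The printed sequences are the central 201 bp of the regions on which the comparison between the stages turns, read from the mm9 reference on the plus strand and not from the NMRI libraries. The first pair are the E10.5 regions whose rank was most above that of the E9.5 region they overlapped. Capitals mark matches, on either strand, to any of 7 short motifs. The sequence TAATTA is the core site of paired and LIM homeodomain proteins, and the palindromic dimer site of paired-type homeodomains can contain it. The other motifs were TTTATNG, which is bound by posterior Hox proteins, the SMAD motif GGCGCC, the motif TGANTCA of the Fos and Jun proteins, the motif AGATAA of Gata proteins and the E-box CANCTG, which is recognised by basic helix-loop-helix proteins.
Prrx1 upstream region, chr1:165287623-165288945: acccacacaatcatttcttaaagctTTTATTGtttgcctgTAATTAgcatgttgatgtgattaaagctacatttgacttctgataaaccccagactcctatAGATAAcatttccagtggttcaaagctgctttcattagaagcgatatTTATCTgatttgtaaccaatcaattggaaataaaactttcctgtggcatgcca
Alx1 downstream region, chr10:102340335-102341399: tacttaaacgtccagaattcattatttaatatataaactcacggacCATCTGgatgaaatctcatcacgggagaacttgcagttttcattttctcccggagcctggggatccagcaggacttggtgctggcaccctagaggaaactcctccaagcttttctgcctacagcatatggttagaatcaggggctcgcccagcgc

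The next set holds the highest-scoring region that was found only at E10.5 for each gene that had one. Prrx1, Alx1, Alx4, Lhx9 and Shox2 are represented by intergenic regions and Prrx2 by an intron.
Prrx1, chr1:165285598-165287135: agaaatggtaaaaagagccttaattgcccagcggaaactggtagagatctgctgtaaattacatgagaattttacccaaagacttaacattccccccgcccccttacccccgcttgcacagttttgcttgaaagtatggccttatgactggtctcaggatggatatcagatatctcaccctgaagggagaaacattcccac
Prrx2, chr2:30727902-30728824: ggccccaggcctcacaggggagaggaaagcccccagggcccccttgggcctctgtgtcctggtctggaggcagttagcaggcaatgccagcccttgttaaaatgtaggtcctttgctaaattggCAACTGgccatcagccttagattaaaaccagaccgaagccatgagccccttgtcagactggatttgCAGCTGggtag
Alx1, chr10:102454825-102455991: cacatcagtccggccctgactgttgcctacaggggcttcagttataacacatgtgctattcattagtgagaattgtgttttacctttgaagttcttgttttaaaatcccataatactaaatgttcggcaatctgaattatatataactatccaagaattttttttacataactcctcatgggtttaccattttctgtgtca
Alx4, chr2:93455361-93457104: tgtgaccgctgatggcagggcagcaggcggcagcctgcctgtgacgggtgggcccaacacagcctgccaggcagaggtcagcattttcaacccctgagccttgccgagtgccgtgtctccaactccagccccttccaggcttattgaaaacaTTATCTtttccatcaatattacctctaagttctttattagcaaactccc
Shox2, chr3:66547801-66549003: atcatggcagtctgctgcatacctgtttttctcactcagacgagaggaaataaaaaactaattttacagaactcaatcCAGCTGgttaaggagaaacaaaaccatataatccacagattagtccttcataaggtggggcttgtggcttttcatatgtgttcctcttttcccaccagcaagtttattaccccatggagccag
Lhx9, chr1:140659151-140660732: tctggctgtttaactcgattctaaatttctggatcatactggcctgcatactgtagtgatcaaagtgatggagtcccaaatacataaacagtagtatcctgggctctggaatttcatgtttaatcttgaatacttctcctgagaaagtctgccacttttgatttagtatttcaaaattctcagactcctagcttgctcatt

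The last set holds the highest-scoring region found only at E9.5, which Prrx2, Alx4, Lhx2 and Lhx9 had. Those of Prrx2 and Alx4 are intronic and those of Lhx2 and Lhx9 intergenic.
Prrx2, chr2:30719997-30721294: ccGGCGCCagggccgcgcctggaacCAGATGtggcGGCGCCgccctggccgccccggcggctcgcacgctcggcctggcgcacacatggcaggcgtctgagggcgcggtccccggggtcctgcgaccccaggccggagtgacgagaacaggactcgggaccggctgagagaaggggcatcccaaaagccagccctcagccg
Alx4, chr2:93502211-93503319: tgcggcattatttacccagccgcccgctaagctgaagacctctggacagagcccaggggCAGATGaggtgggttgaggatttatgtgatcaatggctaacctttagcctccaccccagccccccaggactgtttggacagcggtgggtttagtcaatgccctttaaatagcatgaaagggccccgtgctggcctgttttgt
Lhx2, chr2:38279478-38281094: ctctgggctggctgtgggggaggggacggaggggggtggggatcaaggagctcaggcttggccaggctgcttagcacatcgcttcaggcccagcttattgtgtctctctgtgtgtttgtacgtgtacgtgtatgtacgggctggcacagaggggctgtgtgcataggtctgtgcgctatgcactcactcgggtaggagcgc
Lhx9, chr1:140627389-140628152: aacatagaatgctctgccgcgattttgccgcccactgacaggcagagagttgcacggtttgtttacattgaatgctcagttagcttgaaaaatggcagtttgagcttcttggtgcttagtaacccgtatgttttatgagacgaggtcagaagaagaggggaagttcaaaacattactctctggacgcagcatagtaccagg

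The number of regions differed most between the stages at Prrx1, Alx1 and Shox2. Prrx1 had 3 regions at E9.5 and 11 at E10.5, Alx1 had 3 and 10, and Shox2 had 6 and 14. Over these 3 genes, 12 regions at E9.5 were set against 35 at E10.5, and 22 of the 35 had no overlap with the E9.5 list, beside 35.0% of all E10.5 regions. Of the 35, 29 were centred more than 2.5 kb from any protein-coding start. Among these, 21 had no overlap, beside 49.6% of all such E10.5 regions. The other 4 genes had 27 regions at E9.5 and 28 at E10.5: Prrx2 had 3 and 4, Alx4 had 5 and 5, Lhx2 had 10 and 8, and Lhx9 had 9 and 11. This grouping was chosen after the values were seen and is by number of regions. Choosing genes with more regions at E10.5 itself favours a high share without overlap, so nothing is concluded from that share. By the share of regions found at 1 stage only, Prrx2 stood highest, with 2 of 3 and 3 of 4. These are few regions, with 95% Wilson intervals of 20.8-93.9% and 30.1-95.4%, beside 29.9% and 35.0% of the whole lists. At E10.5 its share of 75.0% was close to the 70.0% of Alx1 and the 64.3% of Shox2.

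Regions with an overlap of 1 bp or more between the lists are referred to as shared, the others as stage-specific. At E9.5, 6 of the 39 regions were stage-specific (15.4%, 95% Wilson interval 7.25-29.7), beside 29.9% of the whole E9.5 list. When all regions within 250 kb of a start were counted, the share was 29.9% as well, so that the difference from the whole list held only for regions assigned by nearest start. At E10.5 they were 29 of 63 (46.0%, 34.3-58.2), beside 35.0% of the whole E10.5 list, a value inside that interval. Within 250 kb of a start, the E10.5 share was 35.2%, close to that of the list. The intervals cover counting error only and treat regions as independent. Regions centred no further than 2.5 kb from any protein-coding start are referred to as promoter-proximal, the others as distal. Of the distal regions, 4 of 24 were E9.5-specific (16.7%, 6.68-35.9) beside 40.3% of all distal E9.5 regions, and 27 of 48 were E10.5-specific (56.2%, 42.3-69.3) beside 49.6% of all distal E10.5 regions. Promoter-proximal regions numbered 15 at each stage, of which 2 were E9.5-specific, where the background was 13.1%, and 2 were E10.5-specific, where it was 5.31%. In total, the 7 genes thus differed in the number of distal regions, 24 at E9.5 and 48 at E10.5, and not of promoter-proximal ones. In the whole lists, distal regions were also more numerous at E10.5, 31376 beside 26277 at E9.5. Promoter-proximal regions were fewer there, 15389 beside 16336. Among the 7 genes, promoter-proximal regions numbered 1 and 3 at Prrx1, 4 and 3 at Lhx2, and 3 and 2 at Shox2, and were equal at the others. The regions of the 7 genes covered 58793 bp in the earlier and 87011 bp in the later list.

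**Figure D1:**
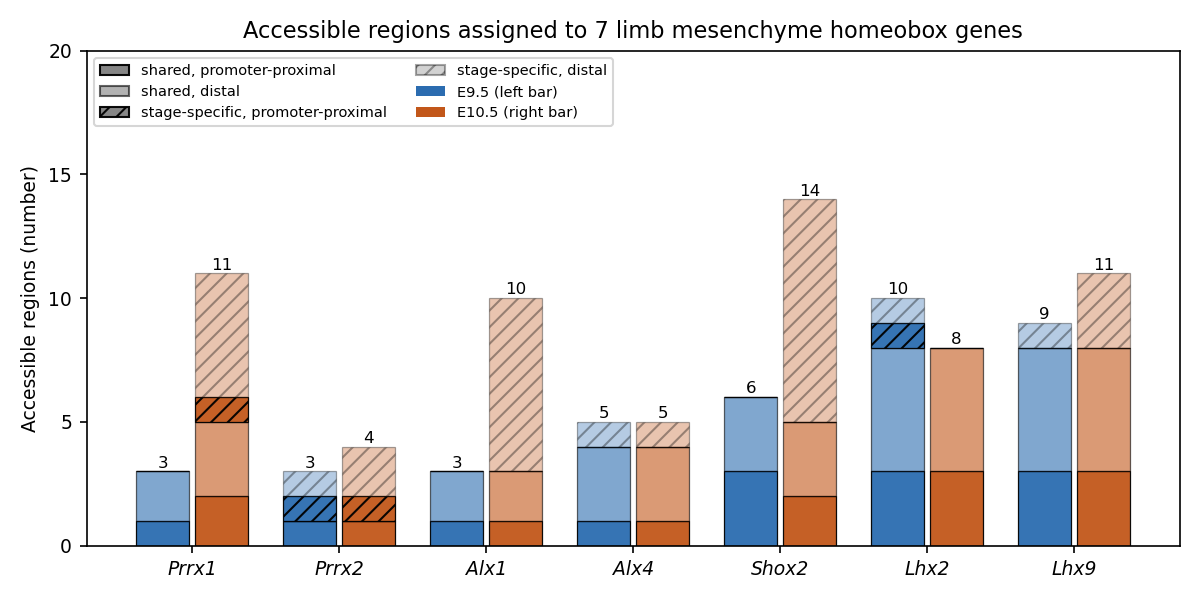
Number of accessible regions (vertical axis) assigned to each gene in the E9.5 list (blue, left bars) and in the E10.5 list (orange, right bars); dark parts are promoter-proximal, light parts distal, and hatched parts stage-specific. Hatched distal regions form the upper part of the E10.5 bars of Prrx1 (5), Alx1 (7) and Shox2 (9), while the bars of Alx4 are of equal height and that of Lhx2 is lower at E10.5.

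To place these counts among other genes, the number of regions at E10.5 minus that at E9.5 was taken for the 16436 protein-coding genes with a region in either list. The median difference was 0, and the range from the 5th to the 95th percentile was -2 to 4. The differences of 8 at Prrx1 and Shox2 lay at percentile 98.7, where 248 genes, 1.51% of the total, had a difference of 8 or more. The difference of 7 at Alx1 lay at percentile 98.2, with 329 genes at 7 or more, so all 3 were in the upper tail but not alone there. The counts depend on how regions were split: at Prrx1, 1 E9.5 promoter region overlapped 3 E10.5 regions. At Shox2, 1 E10.5 region overlapped 2 E9.5 regions. Lhx9 (percentile 89.0) and Prrx2 (78.5) had small positive differences, Alx4 (48.5) had none, and Lhx2 (7.05) had fewer regions at E10.5. In the higher-scoring 50% of each list the differences were 5 at Prrx1, 4 at Alx1 and 5 at Shox2. Among the 10000 highest-scoring regions of each list they were 0, 0 and 1, so the additional regions of these 3 genes lay mostly below the top ranks. In that setting Lhx9 had 0 and 3 regions and Alx4 had 0 and 1.

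**Figure D2:**
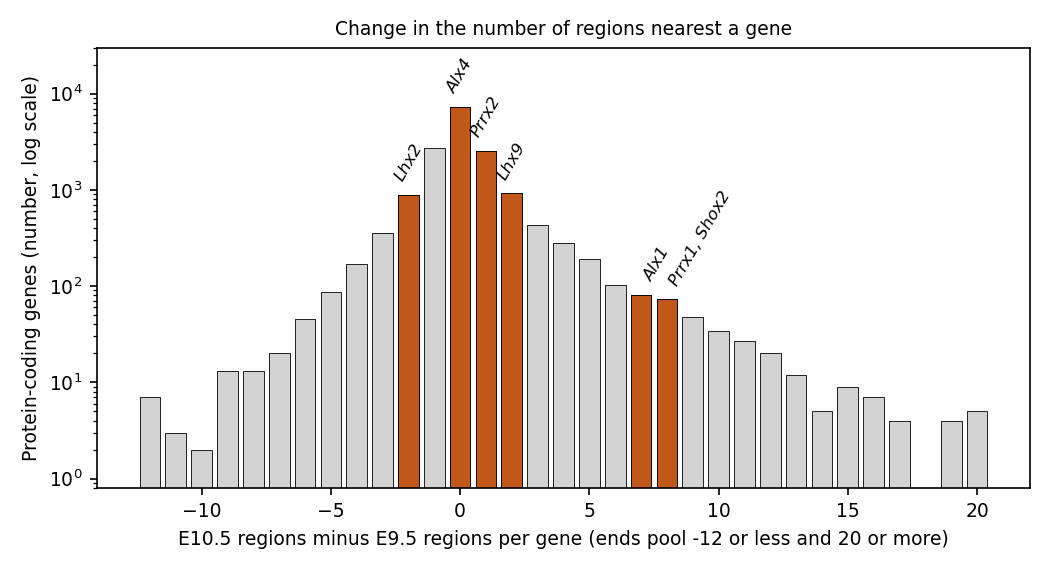
Histogram of the number of E10.5 regions minus E9.5 regions per protein-coding gene (horizontal axis) against the number of genes (vertical axis, log scale), over 16436 genes, with the bins that hold the 7 homeobox genes in orange. Prrx1, Shox2 and Alx1 lie in bins of 8 and 7, the other 4 genes between -2 and 2.

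Scores were compared as ranks, since the authors' score is 10 times the negative log10 of the best p-value of a region and grows with depth. Percentiles are those of a score within its own list. None of the regions of the 7 genes reached the limit of the score (3100), and their median percentiles were 42.3 (E9.5) and 47.2 (E10.5).

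Prrx1 (chr1:165175247-165243841, minus strand) had a broad promoter region at E9.5, chr1:165241031-165245834, 4804 bp wide with a score of 1810 (percentile 91.3) and its centre in an exon. At E10.5 the same interval was covered by 3 separate regions, the strongest of them chr1:165243072-165245809 with a score of 2032 (percentile 96.2), and the other two with 227 and 109. The promoter of Prrx1 was therefore accessible and highly ranked at both stages. An intronic region 5.07 kb from the nearest start, chr1:165237581-165239877, scored 191 at E9.5 (percentile 39.0) and 479 at E10.5 (percentile 70.2). An intergenic region 44.6 kb upstream, chr1:165287949-165288835, scored only 95.01 at E9.5 (percentile 5.30), whereas its E10.5 counterpart scored 547 (percentile 73.6). Close beside it, 42.5 kb upstream, lay the strongest E10.5-specific region of Prrx1, chr1:165285598-165287135, with a score of 436 (percentile 67.9). A further E10.5-specific region, chr1:165219239-165220364, lay 0.447 kb from an internal start of the gene and scored 280 (percentile 55.2). The remaining 4 E10.5-specific regions, 1 in an intron and 3 beyond the 3′ end of the gene at up to 97.7 kb from the nearest start, had scores between 98.9 and 260. Thus Prrx1 had no E9.5-specific region and regions without an E9.5 counterpart on both sides of the gene at E10.5.

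Prrx2 (chr2:30690492-30736761, plus strand), the closest relative of Prrx1, had a different set of regions at each stage. Its single shared region, chr2:30688815-30689816 at 1.18 kb upstream, had a score of 188 at E9.5 and 187 at E10.5 (percentiles 38.5 and 39.8). At E9.5 it was joined by an exonic region 0.0750 kb from an internal start (chr2:30700353-30701424, score 171) and by an intronic one (chr2:30719997-30721294, score 180). At E10.5 both were absent from the list, and 3 other intronic regions were in it, at chr2:30691473-30692727 (score 258), chr2:30708210-30709046 (score 151) and chr2:30727902-30728824 (score 323, percentile 59.6). No region of Prrx2 passed percentile 59.6 in either list, in contrast to the promoter of Prrx1.

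Alx1 (chr10:102470481-102491685, minus strand) had the highest-ranked region of the group at E10.5, at its promoter. This region scored 1722 at E9.5 (chr10:102489169-102493373, percentile 90.4) and 2807 at E10.5 (chr10:102489137-102494102, percentile 98.6). Beyond the 3′ end, a region 21.5 kb from the nearest start scored 246 at E9.5 and 543 at E10.5 (percentiles 48.2 and 73.5), and a region at 144 kb scored 91.6 and 463 (percentiles 4.53 and 69.5). All 3 E9.5 regions were thus found again, each at a higher rank. The 7 E10.5-specific regions were all distal. The strongest lay downstream at 29.8 kb (chr10:102454825-102455991, score 630, percentile 76.8) and 108 kb (chr10:102376214-102377532, score 593, percentile 75.5). The other 5, from 57.3 kb upstream, in an intron of the neighbouring gene Lrriq1, to 245 kb downstream, scored between 128 and 139, so that 2 strong and 5 weak regions made up the set.

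Alx4 (chr2:93482541-93521496, plus strand) had 5 regions at each stage, 4 of them shared. Its promoter region scored 666 at E9.5 (chr2:93481887-93484229, percentile 71.9) and 353 at E10.5 (percentile 62.2). In the opposite direction, an intergenic region 17.2 kb upstream, chr2:93464707-93465969, scored 430 at E9.5 and 925 at E10.5 (percentiles 63.1 and 84.6), and was the highest-ranked region of Alx4 at E10.5. Of the intronic regions, one at 5.03 kb from the start had a difference in percentile (E10.5 minus E9.5) of -28.3, and one at 3.54 kb a difference of 11.7. The E9.5-specific region lay 20.2 kb into the gene (chr2:93502211-93503319, score 234) and the E10.5-specific one 26.3 kb upstream (chr2:93455361-93457104, score 540, percentile 73.3). Upstream of Alx4 there were thus 1 and 2 regions in the earlier and the later list, while the intronic regions numbered 3 and 2.

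Shox2 (chr3:66775649-66785693, minus strand) had the most regions of the group at E10.5. Around the start, a region in an exon (chr3:66784567-66785882, score 633) and one in an intron of the neighbouring gene Rsrc1 (chr3:66785890-66787026, score 296) were separate at E9.5 and merged at E10.5 into chr3:66783996-66787054 with a score of 700 (percentile 79.1). The region with the highest E9.5 score, chr3:66777004-66778238 in an exon 4.73 kb from the nearest start, had scores of 800 and 625 with nearly the same percentiles (75.4 and 76.6). All 6 E9.5 regions of Shox2 were shared. The 9 E10.5-specific regions lay beyond the 3′ end, on the side away from Rsrc1, at 10.7 to 327 kb from the nearest start. The highest scores among them were 565 at 234 kb (chr3:66547801-66549003, percentile 74.4), 495 at 38.5 kb (chr3:66743327-66744287, percentile 71.1) and 279 at 239 kb (chr3:66543187-66544241, percentile 55.0). In contrast, 4 others scored only 73.8 to 95.1, at or below percentile 6.31, close to the lowest score of the E10.5 list (60.4).

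**Figure D3:**
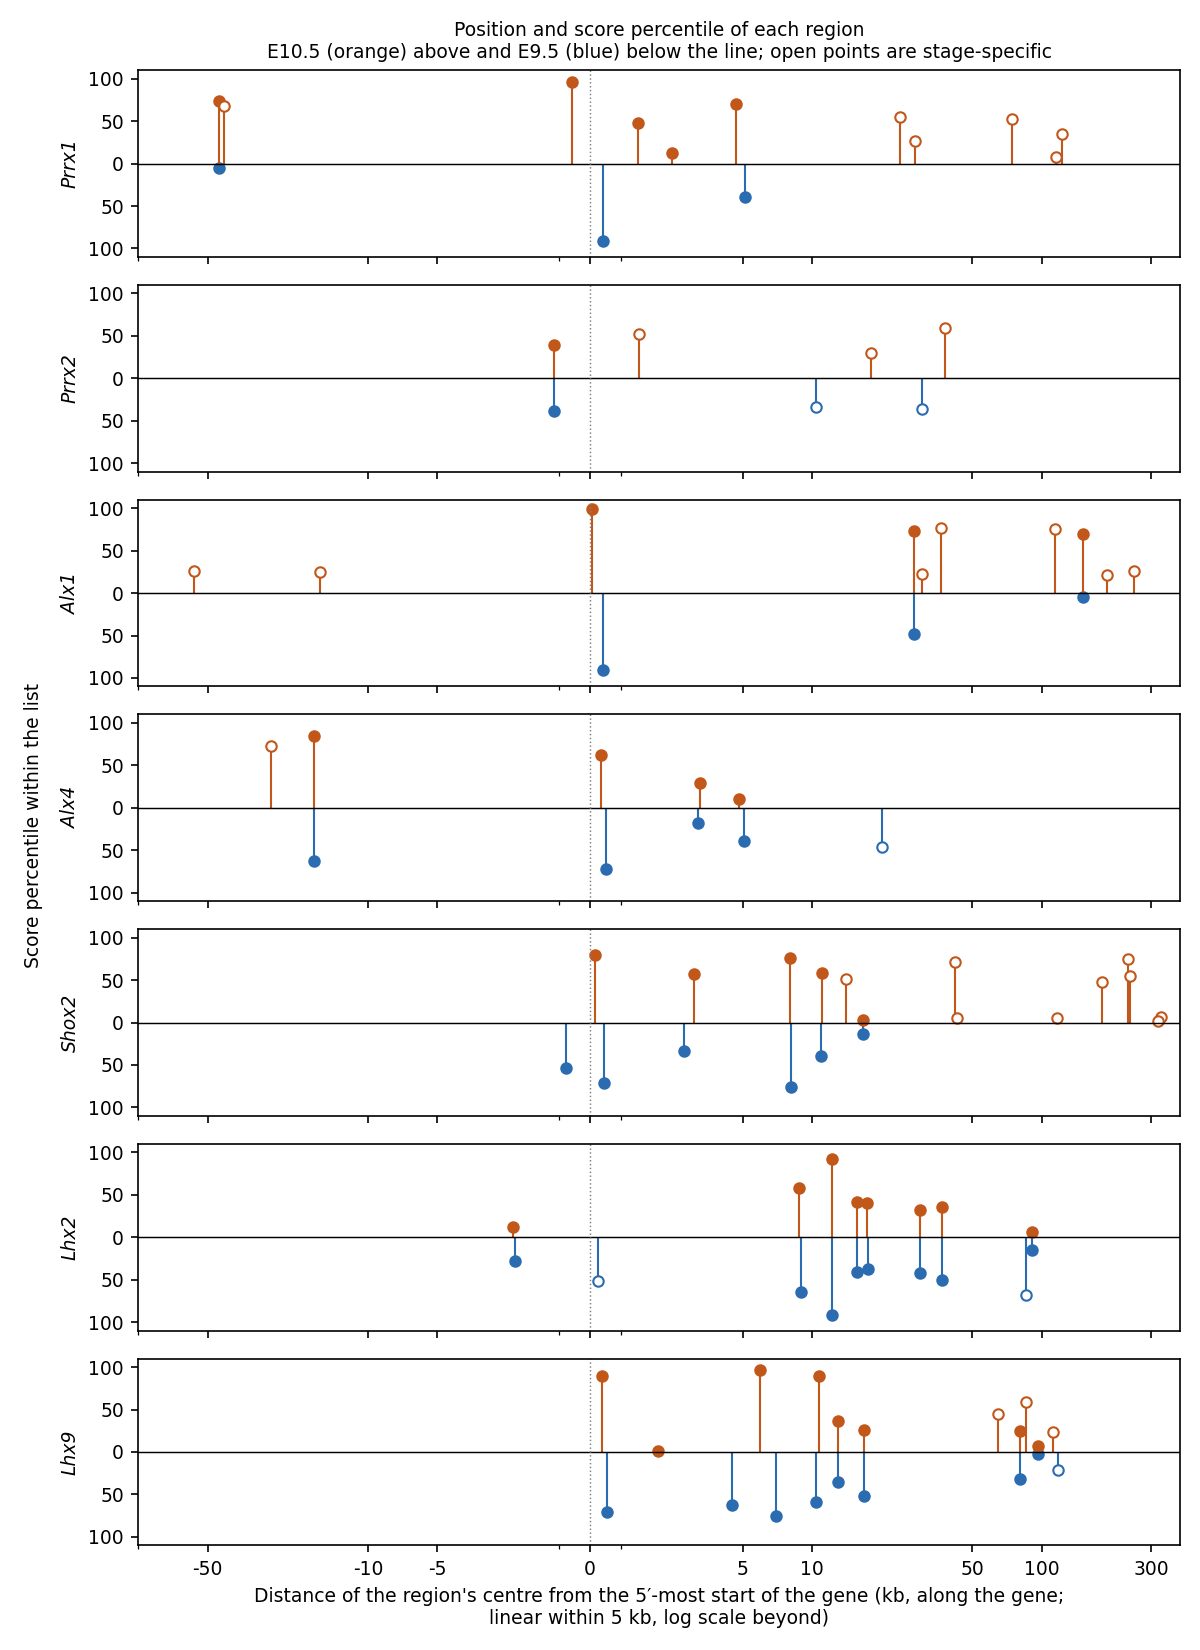
Position of every region relative to the 5′-most start of its gene (horizontal axis in kb along the direction of transcription, linear within 5 kb and logarithmic beyond) and the percentile of its score within its list (vertical axis), with E10.5 regions in orange above and E9.5 regions in blue below each line; open points are stage-specific. Open orange points lie on the downstream side of Shox2 and on both sides of Prrx1 and Alx1, and Lhx2 has none.

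The LIM-homeobox genes Lhx2 and Lhx9 had more regions than the other genes at E9.5, 10 and 9. Of these 19 regions 3 were stage-specific, as were 3 of the 20 of the other genes, beside 29.9% of all E9.5 regions. Lhx2 (chr2:38194801-38225253, plus strand) had its strongest region near an internal start, chr2:38205676-38208290, with scores of 1813 and 1429 and nearly the same percentile in both lists (91.3 and 92.1). The region over its 5′-most start, chr2:38194388-38195731 with a score of 279 (percentile 52.1), was E9.5-specific, and no region of the E10.5 list overlapped it. The second E9.5-specific region of Lhx2 was intergenic, 72.2 kb from the nearest start (chr2:38279478-38281094), and ranked highest of the 4 distal E9.5-specific regions, with a score of 545 (percentile 68.0). Lhx2 was the only one of the 7 genes without an E10.5-specific region. Some promoter-proximal regions of Lhx2 were centred 2.44 kb or more from a start and thus close to the limit of 2.5 kb, and the nearest distal region of the group was that of Prrx1 at 2.64 kb.

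Lhx9 (chr1:140721763-140745153, minus strand) differed from Lhx2 in the ranks of its intragenic regions. At E9.5, chr1:140736874-140739494 scored 782 (percentile 75.0) and its neighbour chr1:140739602-140741411 scored 419 (percentile 62.5), whereas at E10.5 both were covered by 1 region of 4574 bp with a score of 2100 (percentile 96.5). An intronic region 4.28 kb from the nearest start, chr1:140733814-140735629, scored 352 at E9.5 and 1214 at E10.5 (percentiles 58.4 and 89.5), and the region at the 5′-most start scored 638 and 1187 (percentiles 71.1 and 89.1). The E9.5 region at this start also overlapped a second, weak E10.5 region, chr1:140742567-140743286, with a score of 71.8 (percentile 0.957). Of the other shared E9.5 regions, an intronic one at 10.8 kb and an intergenic one at 74.5 kb ranked lower at E10.5. The E10.5-specific regions were intergenic, beyond the 3′ end, with scores of 318 (chr1:140659151-140660732, percentile 59.1), 208 and 133. The E9.5-specific region, 111 kb from the nearest start (chr1:140627389-140628152), scored 131 (percentile 21.3).

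For the 33 shared E9.5 regions of the group, the percentile was compared with that of the best-scoring overlapping E10.5 region. The E10.5 percentile was higher for 23 of 33 (69.7%), beside 50.3% of all 29883 shared E9.5 regions, with a median difference of 4.88 beside 0.0874. It was higher for 3 of 3 regions of Prrx1, 3 of 3 of Alx1, 1 of 1 of Prrx2, 5 of 6 of Shox2, 6 of 8 of Lhx9, 2 of 4 of Alx4 and 3 of 8 of Lhx2. Over all shared regions the 5th and 95th percentiles of the difference were -34.7 and 39.3. Only the upstream region of Prrx1, with a difference of 68.3, and the downstream region of Alx1 at 144 kb, with 64.9, lay above this range, and no E9.5 region lay below it. These 2 regions had E9.5 percentiles of 5.30 and 4.53, from which a rank can rise far but hardly fall. The range was taken over shared regions of every E9.5 percentile. The count differs when it starts from the E10.5 list, where weak regions beside a strong one are compared one by one. Of the 34 shared E10.5 regions, 21 (61.8%) had the higher percentile, with the same 2 above the corresponding range of -38.7 to 38.0 and 3 below it. These 3 were the weaker regions that overlapped the wide E9.5 promoter regions, with differences of -78.7 and -43.5 at Prrx1 and -70.1 at Lhx9. The central 201 bp of that Prrx1 region at E10.5, printed first above, held a TAATTA match, whereas the Alx1 region held an E-box match only. As 1 wide region could overlap several of the other list, some of the regions of Shox2 and Lhx9 had the same E10.5 partner.

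**Figure D4:**
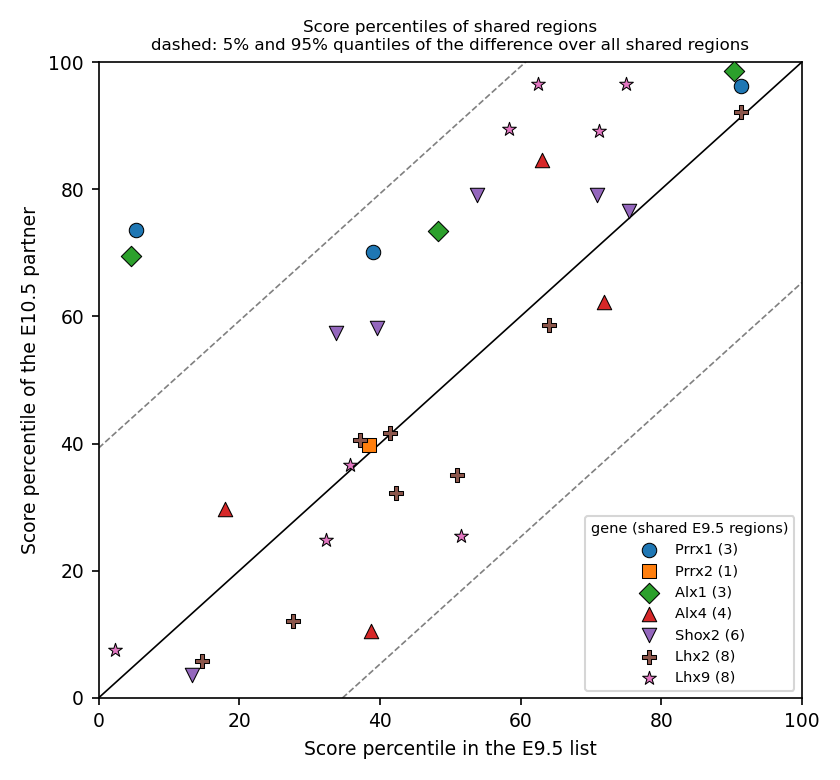
Percentile of the score in the E9.5 list (horizontal axis) against that of the best-scoring overlapping region in the E10.5 list (vertical axis) for the 33 shared E9.5 regions, with 1 symbol per gene. The solid line marks equal percentiles and the dashed lines the range from -34.7 to 39.3; only 1 region of Prrx1 and 1 of Alx1, both near percentile 5 at E9.5, lie above it.

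The positions of the 27 distal E10.5-specific regions were compared with those of shared distal regions. Of the 27, 23 were intergenic, 3 lay in the gene itself and 1 in another gene, and 4 were upstream of the 5′-most start. Of the 21 shared distal E10.5 regions, 11 lay in the gene itself and 10 were intergenic. The median distance from the nearest start was 58.3 kb for the stage-specific and 10.7 kb for the shared regions. Over all distal E10.5 regions the stage-specific share also rose with distance, from 33.6% at 2.5 to 10 kb to 52.4% at 50 to 100 kb. At 100 kb or more, 10 of 11 distal E10.5 regions were stage-specific (6 of 6 at Shox2, 3 of 4 at Alx1 and 1 of 1 at Lhx9), beside 65.2% of all E10.5 regions at such distances. In the higher-scoring 50% of the E10.5 list, 11 of 20 distal regions of the group were stage-specific, beside 35.4% of all. Of all distal E10.5-specific regions, 26.1% ranked in that upper part, beside 11 of the 27. These strata were chosen after the values were seen.

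Counting instead every region within 250 kb of a start, whichever gene was nearest, gave 9 regions at E9.5 and 26 at E10.5 around Prrx1, 5 and 17 around Alx1, and 7 and 16 around Shox2. The larger E10.5 number at these genes thus extended to regions assigned to their neighbours Gorab, 4921528O07Rik, Lrriq1 and Rsrc1. Around Prrx2 the numbers were 50 and 30, so that the direction was the opposite of that by nearest start, with most regions assigned to other genes (47 at E9.5). Alx4 had 38 and 35, Lhx2 had 19 and 14, and Lhx9 had 16 and 21.

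Base composition was then compared for the distal regions. The median GC content within 150 bp of the centre was 54.0% for the 24 distal E9.5 regions and 46.2% for the 48 distal E10.5 regions, beside 50.8% and 47.2% of all distal regions. The 27 E10.5-specific distal regions had a median of 41.9% (range 34.6 to 58.1) and the 21 shared ones 49.2%, beside 44.2% and 50.5% over the whole E10.5 list. The genes differed among themselves: at E10.5 the median was 42.0% for Prrx1, 41.5% for Alx1 and 44.7% for Shox2, and 45.5% for Lhx9, but 56.0% for Prrx2, 59.3% for Alx4 and 61.8% for Lhx2. The lower values thus included Lhx9, at which the numbers of regions were similar at the stages. In the lowest quartile of GC content of distal E10.5 regions, 16 of 19 regions of the group were stage-specific (6 of 6 at Alx1, 5 of 5 at Shox2, 4 of 5 at Prrx1 and 1 of 3 at Lhx9), close to the 77.1% of all regions of that quartile. In the highest quartile, the share was 4 of 13 (2 of 2 at Prrx2, 2 of 4 at Shox2, 0 of 3 at Alx4 and 0 of 4 at Lhx2), beside 17.2% of all. The part of GC content in the difference between the genes was not tested.

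**Figure D5:**
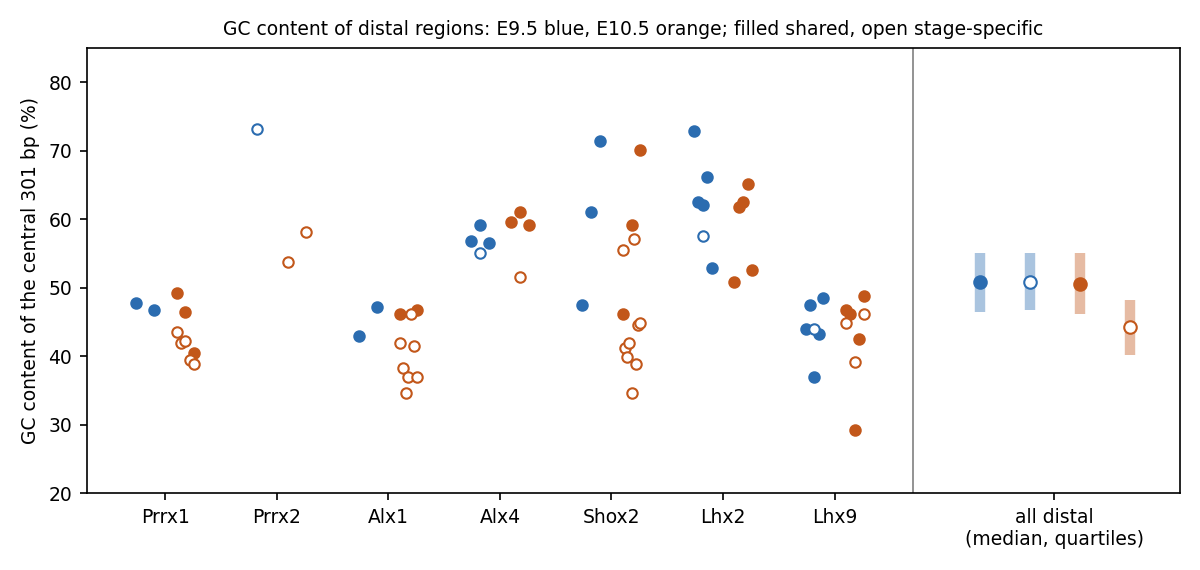
GC content within 150 bp of the centre (vertical axis, percent) of each distal region by gene, with E9.5 in blue, E10.5 in orange, shared regions as filled and stage-specific regions as open points; the right-hand part gives the median and quartiles of all distal regions of the same 4 kinds. The open orange points of Prrx1, Alx1 and Lhx9, and all but 2 of the 9 of Shox2, lie below 49.2%. This is the median of the shared distal E10.5 regions of the 7 genes. Those of Prrx2 and Alx4 lie above it. All distal E10.5-specific regions of the list have a median of 44.2%.

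Motif matches within 150 bp of the centre were counted on both strands. TAATTA was found in 1 of 24 distal E9.5 regions and 2 of 48 distal E10.5 regions (4.17% each, intervals 0.739-20.2 and 1.15-14.0), beside 7.18% and 12.0% of all distal regions. The 1 region at E9.5 was the intronic region of Prrx1, and the 2 at E10.5 were the upstream region of Prrx1 and an intronic region of Lhx2 (chr2:38202777-38204278). Each of these regions was shared. The region of the other list that it overlapped had its centre elsewhere, and no match within 150 bp of that centre. Among the 27 E10.5-specific regions the number with TAATTA was 0, which allows a share of up to 11.1% (3 counts), beside 16.1% of all such regions. Over the whole length of the 27 regions it was 7 (25.9%, 13.2-44.7), beside 37.1%. The paired-type dimer site was found in 0 of the 24 and 0 of the 48 distal regions, which allows shares of up to 12.5% and 6.25% (3 counts), and in 0.381% and 0.698% of all. In whole regions it was found in 2 of 24 (8.33%, 2.32-25.8) beside 2.04%, and in 3 of 48 (6.25%, 2.15-16.8) beside 2.81%. TTTATNG occurred in 7 of the 27 (25.9%) beside 23.8% of all, CANCTG in 17 (63.0%) beside 65.4%, AGATAA in 4 (14.8%) beside 13.1%, TGANTCA in 3 (11.1%) beside 1564 of all 15573 such regions, and GGCGCC in 1 (3.70%) beside 306 of 15573. A match is a description of the sequence and not evidence of binding.

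Of the remaining genes of the paired and LIM homeobox classes, 29 were counted in the same way. In all they had 168 regions at E9.5 and 147 at E10.5: 6 genes had more at E10.5, 17 had fewer and 6 had equal numbers. Over all 16436 protein-coding genes with a region in either list, the median difference was 0. Stage-specific regions of the 29 genes were 62 of the 168 (36.9%) and 41 of the 147 (27.9%), beside 29.9% and 35.0% of the whole lists. Among the genes with the most regions were Lmx1b, which acts in dorsal limb patterning, with 25 at E9.5 and 19 at E10.5, and Isl1, with 12 and 17. Among those with the fewest were Hesx1 and Vsx1, with 1 in each list. The genes most like the 7 by the numbers of shared and stage-specific regions in both lists were Lmo3 for Alx1, March1 for Prrx2, Dennd1b for Alx4, Tcf12 for Lhx2 and Rassf3 for Lhx9, all with identical counts (distance 0), Gas2 for Shox2 (distance 1) and Bcl11b for Prrx1 (distance 1.41). This likeness is over 4 counts from 2 lists, and up to 29 genes tied at the same distance, from which the covered length chose 1.

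Cell type markers were examined in both lists, and 18 of 19 were matched to the annotation. Together they had 96 regions in the earlier and 128 in the later list, and 15 and 14 of them had a promoter-proximal region. The forelimb gene Tbx5 had 4 and 3 regions. Of the limb bud genes, with 17 and 39 together, Fgf10 had 6 and 19, Hand2 10 and 19, and Grem1 1 and 1. The 5 somite and trunk genes had 29 and 38 together, each with a promoter-proximal region in both lists. Among them, Pax1 had 13 and 20, Pax9 5 and 9, Meox1 6 and 4, Myf5 4 and 4, and Tbx6 1 and 1. The neural tube genes Pax6 and Olig2 had 14 and 13 together. Of the hindlimb genes, Tbx4 had 8 and 7 regions, Isl1 12 and 17, and Pitx1 6 and 1, with 0 promoter-proximal regions of Pitx1 at E10.5. Of the blood genes, Tal1 had 5 and 5 regions, with a promoter-proximal one in both lists, and Gata1 had 0. Of the ectoderm genes, Trp63 had 1 and 5, none of them promoter-proximal, and Krt5 had 0. The part of trunk tissue in the numbers of regions at the 7 genes was not tested.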

How the data were processed

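ATAC-seq libraries of 4 samples, 2 per stage, were represented by 2 combined lists. The authors aligned reads to mm9 with Bowtie 1.1.0, keeping uniquely placed reads, called accessible regions with MACS 1.4 and merged both replicates of each stage with MSPC (stringent p-value 1e-10, weak p-value 1e-06). The deposited score of a region is 10 times −log10 of its MACS p-value, the best one where replicate regions overlapped, so scores grow with depth, which is unknown, and were only ranked within a list. Read shifting for the transposase is not given in the sources used here.

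Regions were assigned by their centre with GENCODE vM1 on NCBIM37 (mm9), on which 0 regions ran past a chromosome end, using Python 3.11.15, pandas 2.3.3 and numpy 2.4.6. The functions were tested on simulated data. Shares carry 95% Wilson intervals. Coordinates are 1-based. Named for each gene and list were the highest-scoring promoter-proximal, distal and stage-specific regions; other regions were named after their values were seen. The homeobox genes, markers and motifs were chosen with earlier results of these data known, and the strata of distance, GC content and score after the values were seen. Of the other homeobox genes, Drgx was matched as Prrxl1, and the 3 with the most and the 3 with the fewest regions were to be named; some of these are not reported here. Sox1 was not matched, and the planned comparison of homeodomain proteins was not made. No test was made, since each stage has 1 list. Alternatives were other score limits, gene assignments, overlaps, promoter distances and sequence windows.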

Additional observations from a re-analysis of the deposited data

How the results depend on the processing

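No paired analysis was possible because the replicates of a stage had been merged into 1 list; for the same reason no replicate was left out. Over all alternatives, 54 values stayed within their interval or within 1.5 times, 45 moved and 2 reversed. The reversals were Prrx2 within 250 kb of a start (E10.5 minus E9.5, -20 regions) and Lhx9 in the higher-scoring 50% of each list (-1). In that higher-scoring 50%, the genes had 17 regions at E9.5 and 30 at E10.5 covering 35098 and 55552 bp; 63.3% of E10.5 regions, 42.9% of distal E9.5 and 80.0% of distal E10.5 regions were stage-specific, 58.8% of E9.5 regions were promoter-proximal, and the median E9.5 percentile within that list was 36.1. Here both lists were shortened, and with the other list kept whole, the 3 stage-specific shares were 43.3%, 14.3% and 55.0%. The last 2 of these, 1 of 7 and 11 of 20 regions, stand beside 22.8% and 35.4% of all distal regions in the upper 50% of the lists. Shares over all regions were not computed with both lists shortened, here or for the 10000 highest-scoring regions. Among the 10000 highest-scoring regions of each list, 3 and 8 were left, covering 11624 and 24213 bp, with 0% and 62.5% stage-specific, 100% of distal E10.5 regions stage-specific, 100% and 75.0% promoter-proximal and a median E9.5 percentile of 62.9; no distal E9.5 region was left, so that share has no value. Within 250 kb of a start there were 144 and 159 regions covering 184383 and 199801 bp. Of these, 29.9% of E9.5 regions and 36.5% of distal E9.5 regions were stage-specific, beside 29.9% and 40.3% over the whole E9.5 list. At E10.5 the shares were 35.2% and, for distal regions, 46.6%, beside 35.0% and 49.6% over the whole E10.5 list. With promoters reaching 5 kb, 38.1% of E10.5 regions were promoter-proximal. In whole regions, TAATTA was found in 25.0% of distal regions at each stage. The settings differ in which regions were counted, in which regions of the other list they were compared with, or in the length of sequence. Why the values moved was not tested. For regions near the lowest score of a list, the part of the score threshold in their absence from the other list was not tested.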
